A study of Mus musculus with 24 samples.

Results

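The genes that write, copy and remove DNA methylation were examined in hematopoietic stem cells (HSCs) of young and old mice. The list held 10 genes chosen by name for their function, with earlier results of these data known. Of these genes 9 had a row among the 18762 genes of the table. These are *Dnmt1*, *Uhrf1*, *Dnmt3a*, *Dnmt3b*, *Tet2*, *Tet3*, *Tdg*, *Idh1* and *Idh2*, while *Tet1* was not analysed here. All 9 genes passed the minimum mean value of 10. LSK-SLAM cells, which are bone marrow cells sorted for c-Kit, Sca-1 and CD150 without lineage markers or CD48 and rich in HSCs, were taken from 5 young and 7 old wild-type (Wt) C57BL/6 mice. Per the labels, young mice were aged 4 to 5 months and old mice 20 to 22 months, and no mouse carried a mutant allele or received a treatment that the labels name. The study's supplementary text gives higher ages for both groups, and the labels were followed here. RNA was taken from 15000 sorted cells, and 300 pg of RNA depleted of ribosomal RNA entered the TotalScript library kit, which is made for small inputs. The 24 labelled samples are 2 per mouse, and 1 column of normalized read counts per mouse was used. The RNA came from whole sorted populations, so fewer cells that use a gene and less RNA per cell cannot be told apart.

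DNA methylation is the addition of a methyl group to cytosine, mostly where a G follows (CpG). After DNA replication UHRF1 binds hemimethylated CpG sites and brings DNMT1, the maintenance methyltransferase, which copies the mark to the new strand. DNMT3A and DNMT3B set methylation at sites that had none. TET enzymes oxidise methylcytosine with 2-oxoglutarate as cosubstrate, the glycosylase TDG removes some of the oxidised bases, and IDH1 and IDH2 make 2-oxoglutarate in the cytosol and in mitochondria. In blood, loss of *DNMT3A* or *TET2* function is the most common lesion of clonal haematopoiesis, an expansion of single HSC clones with age.

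Promoters of the maintenance pair are shown because *Uhrf1* and *Dnmt1* are known to be used in cycling cells and because the level of *Uhrf1* was where the ages stood furthest apart. RefSeq windows on GRCm38.p6 run from 250 bases before to 50 bases after a gene's start and hold 300 bases each. They were searched on both strands for the E2F words TTTCCCGC, TTTCGCGC, TTTGCCGC and TTTGGCGC. E2F factors are known regulators of genes that cells use in S phase. The 10 listed genes had 16 windows, of which 2 held a word, 1 of *Uhrf1* and 1 of *Dnmt1*. Of all 32851 windows of this length, 744 held a word (2.26%). Both windows below are written 5′ to 3′ on the strand of the gene, with the words in capitals. They lie at chr17:56304063-56304362 on the plus strand for *Uhrf1* and at chr9:20952574-20952873 on the minus strand for *Dnmt1*.
Uhrf1: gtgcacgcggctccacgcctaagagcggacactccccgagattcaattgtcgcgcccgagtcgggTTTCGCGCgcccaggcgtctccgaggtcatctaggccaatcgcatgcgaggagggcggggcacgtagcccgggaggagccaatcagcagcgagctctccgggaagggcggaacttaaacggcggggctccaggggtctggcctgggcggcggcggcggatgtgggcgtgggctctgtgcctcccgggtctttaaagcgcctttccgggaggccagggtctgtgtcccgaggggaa
Dnmt1: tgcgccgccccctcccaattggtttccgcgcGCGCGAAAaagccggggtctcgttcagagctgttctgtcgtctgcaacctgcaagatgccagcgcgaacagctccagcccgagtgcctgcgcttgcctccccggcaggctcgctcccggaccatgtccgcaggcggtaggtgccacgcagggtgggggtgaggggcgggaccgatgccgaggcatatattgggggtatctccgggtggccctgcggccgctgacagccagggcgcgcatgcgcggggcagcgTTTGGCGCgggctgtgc
The *Uhrf1* word begins at base 66 of its window, and the *Dnmt1* words begin at bases 32 and 284, none overlapping another word. Each of these windows holds 33 CpG sites, more than 91.4% of all windows. The other windows of *Uhrf1* and *Dnmt1* hold between 2 and 12 CpG sites and no word. Among 20 S-phase genes listed for comparison, 18 had a window and 7 of these held a word, against 2.60% of all genes with a window. Every E2F word itself contains a CpG, and the median of all windows is 7 CpG sites. The shares of all windows and of all genes were not matched for CpG content, so they are no measure of enrichment. A match is a description of letters and no evidence of binding.

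Recovered reads per mouse ranged from 861047 to 5118507, and 3 reads were worth a normalized read count between 0.583 and 3.69. The label of each mouse ends in the letter A (2 young, 4 old) or B (3 young, 3 old), whose meaning is not given in the sources used here. Every letter A mouse had fewer reads (0.861 to 3.11 M) than every letter B mouse (3.23 to 5.12 M, where M stands for 1000000). All 10 stem cell markers (among them *Kit*, *Ly6a*, *Slamf1*, *Procr* and *Hlf*) were above 0 in each mouse, with a summed value between 1588 and 5427, and *Cd48*, whose protein the gate removes, stayed at 11.8 or less. Markers of neutrophils and monocytes summed to between 156 and 566 in young mice and between 87.5 and 2556 in old mice. The highest sums were those of old mice 6, 5 and 7 (2556, 972 and 624), all of letter A, and they also had at most 2.20 M reads each. None of the tested markers of erythroid cells (8), neutrophils and monocytes (8), B and T cells (4), megakaryocytes (3) or endothelial and stromal cells (8) was called between the ages by limma. By mean log2 value, 7 of 8 erythroid and 7 of 8 neutrophil and monocyte markers were higher in old mice, and 1 of each was lower. The median log2 differences of these lists were 0.32 and 0.52. Erythroid markers summed to between 128 and 253.5 in young mice and between 86.0 and 779 in old mice. Only 2 of all these markers had an unadjusted limma p under 0.05, both lower in old mice. *Pf4*, a platelet chemokine, had 41.1 ± 26.4 in young and 14.6 ± 6.22 in old mice (log2 difference -1.33, adjusted limma p 0.796). *Emcn*, a surface protein of endothelium, had 52.6 ± 8.38 and 33.4 ± 11.4 (log2 difference -0.70, adjusted limma p 0.873).

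Per kb of exon, *Dnmt1* was the most abundant of the genes and *Tdg* the least. This scale divides the normalized read count by the length of all annotated exons of the gene, and reads of a gene that uses only part of its exons are diluted by it. Over the 12 mice *Dnmt1* averaged 42.9 ± 11.7 per kb (SD, n = 12), followed by *Idh2* at 33.6 ± 9.47, *Uhrf1* at 21.3 ± 8.66, *Dnmt3b* at 18.7 ± 5.52 and *Idh1* at 15.0 ± 4.20. *Tet3* (9.45 ± 2.26), *Tet2* (8.61 ± 1.61) and *Dnmt3a* (8.29 ± 0.860) formed a lower group, and *Tdg* had 3.24 ± 1.61 per kb (SD, n = 12). Neighbours in this order often changed places. *Uhrf1* exceeded *Dnmt3b* in 7 of 12 mice, *Dnmt3b* exceeded *Idh1* in 9, *Tet3* exceeded *Tet2* in 9 and *Tet2* exceeded *Dnmt3a* in 7. *Dnmt1* exceeded *Idh2* and *Idh2* exceeded *Uhrf1* in 11 mice each. Only *Idh1* over *Tet3* and *Dnmt3a* over *Tdg* held in all 12 mice. In old mice the mean of *Idh1* (16.2 ± 5.20, n = 7) was above that of *Uhrf1* (15.7 ± 4.41, n = 7), and in young mice below it (13.5 ± 1.61 against 29.3 ± 6.53, n = 5). The order in old mice depends on old mouse 7, which had the highest *Idh1* (26.6 per kb) and the lowest *Uhrf1* (8.37 per kb) of all mice.

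**Figure D1:**
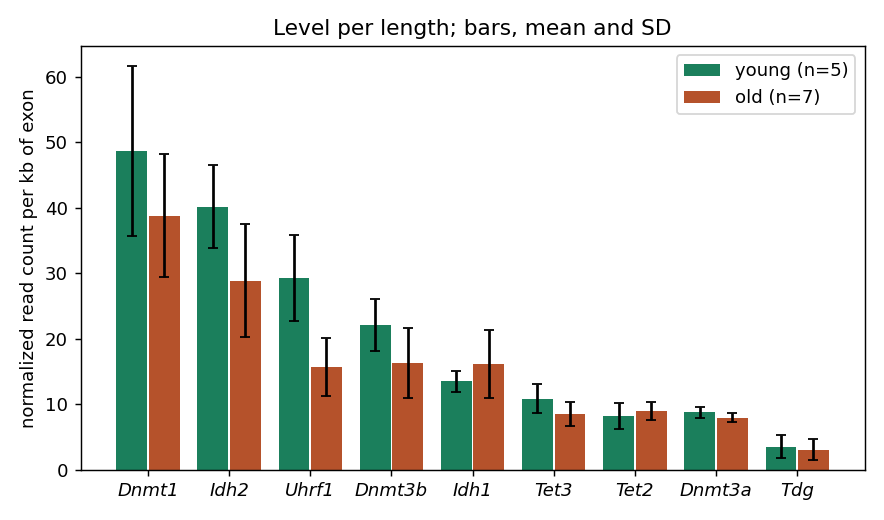
Mean normalized read count per kb of exon (vertical axis, linear) of each gene in young (n = 5) and old (n = 7) mice, with SD as error bars. *Dnmt1* stands highest in both ages, and the pair of bars of *Uhrf1* is the most unequal, at 29.3 in young and 15.7 in old mice.

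*Uhrf1*, the reader that brings DNMT1 to newly replicated DNA, had lower values in every old mouse than in any young mouse. The gene (ENSMUSG00000001228) lies at chr17:56303321-56323486 on the plus strand of GRCm38. Young mice 1 to 5, here and below in this order, had normalized read counts of 92.1, 99.5, 148, 129.9 and 153, and the 7 old mice ranged from 35.7 through a median of 63.6 to 91.7. The ages did not overlap, although the highest old mouse (91.7) was close to the lowest young mouse (92.1). Among the 9 genes *Uhrf1* was the 1 with this pattern, and 21 of the 12354 genes tested were lower in old mice without overlap (0.17%). The mean was 124.6 ± 27.8 in young (SD, n = 5) and 66.8 ± 18.8 in old mice (SD, n = 7), which is 46.4% lower. On the log2(value + 1) scale the difference was -0.91 with an SE of 0.23 and a 95% interval from -1.39 to -0.44. A two-sided exact permutation test over all 792 splits gave p = 0.00253, where the smallest possible p is 0.00126. Over all genes limma gave an unadjusted p of 0.000785 for *Uhrf1*, the rank 35 of 12354 genes, and an adjusted p of 0.256, so that *Uhrf1* was not called.

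The *Uhrf1* difference was seen within both letters. Among letter A mice the mean was 95.8 ± 5.26 in young (n = 2) and 59.7 ± 20.3 in old mice (n = 4), and among letter B mice 143.8 ± 12.2 (n = 3) and 76.2 ± 14.3 (n = 3, all SD). The log2 difference was -0.74 in letter A (adjusted limma p 0.9997) and -0.92 in letter B (adjusted limma p 0.0120). The exact permutation p was 0.20 in letter A, where the smallest possible is 0.0667, and 0.10 in letter B, the smallest possible there. In letter B alone 100 genes were called in all (0.809%), and *Uhrf1* was the 1 gene of the 9 among them. With the letter as a covariate the difference was -0.83 (SE 0.20) and the adjusted limma p 0.0662, just outside the threshold that 37 genes (0.299%) passed. DESeq2 on the recovered reads called *Uhrf1* (log2 difference -0.89, adjusted p 0.0192) among 57 genes (0.461%), while edgeR's quasi-likelihood test gave an adjusted p of 0.190. The old letter B mice had summed neutrophil and monocyte markers of 87.5 to 149, below the 156 to 566 of the young letter B mice. In letter A the sums of these markers were 206 and 186.5 in young mice and 334 to 2556 in old mice. The part of other cells in the *Uhrf1* difference was not tested. *Uhrf1* had between 29 and 756 reads per mouse, and of its 50-base words 15.4% also occur in transcripts of other genes, 14.7% in those of the pseudogene *Gm5648*.

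*Dnmt1*, the maintenance methyltransferase itself, overlapped widely between the ages. It lies at chr9:20907209-20959888 on the minus strand. Young mice had 337.5, 217, 426, 348 and 466, and old mice ranged from 169.7 through a median of 322 to 362. The lowest values of both ages came from letter A mice, and 2 of 7 old mice lay below all young mice. The mean was 359 ± 95.9 in young and 286 ± 69.8 in old mice, a log2 difference of -0.32 (SE 0.24, 95% interval -0.82 to 0.18, exact permutation p = 0.216). The interval leaves room for old values from 0.566 to 1.13 times those of the young. Because *Uhrf1* and *Dnmt1* act together, their ratio was also formed within each mouse, a comparison added after the data were seen. The log2 ratio of *Uhrf1* to *Dnmt1* was -1.50 ± 0.27 in young and -2.10 ± 0.57 in old mice (SD), and the difference of -0.59 did not pass (exact permutation test, p = 0.0606, adjusted over the 5 ratios formed 0.101).

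**Figure D2:**
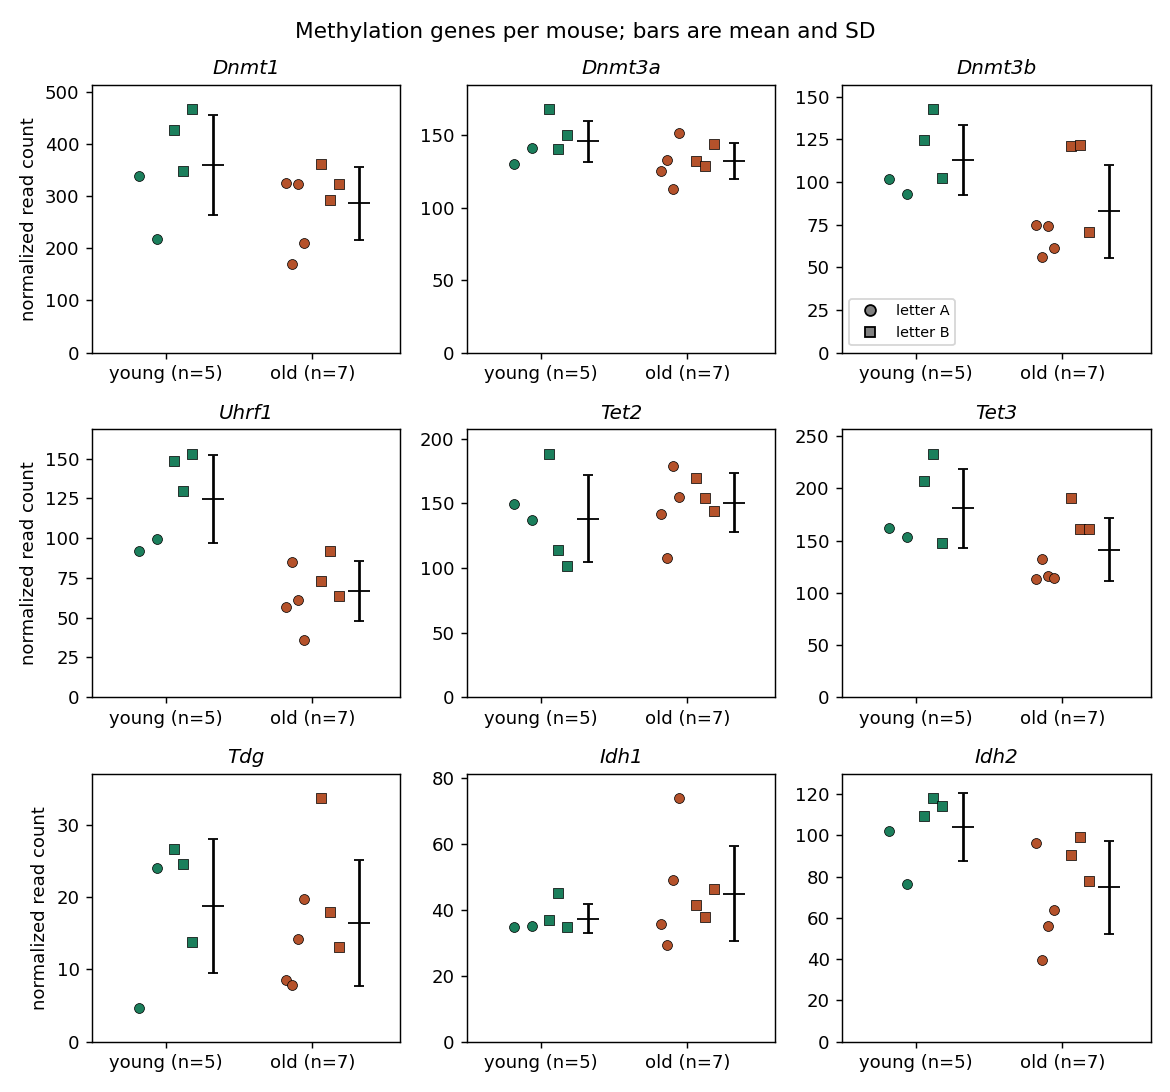
Normalized read count (vertical axes, linear, each from 0) of the 9 genes in each young (green, n = 5) and old (brown, n = 7) mouse, with circles for letter A, squares for letter B, and the mean and SD beside the points. *Uhrf1* is the panel without overlap between the ages, from 92.1 up in young and from 91.7 down in old mice, and in *Tet3* the old mice of letter B, drawn as squares, sit above the old mice of letter A.

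The de novo enzymes differed from each other in how even their values were. *Dnmt3a* (chr12:3806007-3914443, plus strand) is the methyltransferase most often mutated in clonal haematopoiesis. It had 130.3, 141, 168, 140.1 and 149.8 in young mice and from 113 through 132 to 151 in old mice. The ages overlapped, and the 12 mice lay close together, with an SD of 0.860 around a mean of 8.29 on the per kb scale. The mean was 145.9 ± 14.1 in young and 132 ± 12.5 in old mice, a log2 difference of -0.14 (SE 0.15, 95% interval -0.45 to 0.17, exact permutation p = 0.115). *Dnmt3a* exons overlap those of *Dnmt3aos* on the other strand, and whether the counting used strand is not given in the sources used here.

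*Dnmt3b* (chr2:153649450-153687730, plus strand) is known mainly from early development, where most of the genome's methylation is set. Young mice had 102, 92.8, 125, 143 and 102, and old mice ranged from 56.0 through 74.1 to 122. Of the 7 old mice 5 lay below every young mouse, while old mice 2 and 3, both of letter B, reached 121 and 122. The mean was 113 ± 20.4 in young and 82.9 ± 27.3 in old mice, a log2 difference of -0.48 (SE 0.22, 95% interval -0.94 to -0.03, exact permutation p = 0.0556). In letter A the 2 young mice (97.3 ± 6.32) and the 4 old mice (66.6 ± 9.27) did not overlap, and the exact permutation p of 0.0667 is the smallest that this letter allows. Lower values in old mice without overlap in letter A were found for 3 of the 9 genes and for 656 of all genes tested (5.31%). In letter B the means were 123 ± 20.3 and 104.7 ± 29.4 (SD, n = 3 each; exact permutation p = 0.500). Of the 50-base words of *Dnmt3b*, 9.81% also occur in *Dnmt3c*, a copy of *Dnmt3b* used in male germ cells. The ratio of *Dnmt3b* to *Dnmt3a* within a mouse was lower by 0.34 on the log2 scale in old mice (exact permutation p = 0.188), and that of *Dnmt1* to *Dnmt3a* by 0.18 (exact permutation p = 0.482).

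The TET genes did not lean the same way. *Tet2* (chr3:133463679-133545139, minus strand) is the family member whose loss expands HSC clones. Young mice had 149, 137, 188, 114 and 102, and old mice ranged from 108 through 154 to 179. The ages overlapped fully, with the lowest and the highest of the 12 values both in young letter B mice. The mean was 138 ± 33.7 in young and 150.3 ± 22.8 in old mice, a log2 difference of 0.14 (SE 0.18, 95% interval -0.25 to 0.53, exact permutation p = 0.410).

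*Tet3* (chr6:83362373-83459084, minus strand), known for oxidising the paternal genome in the zygote, had lower means in old mice. Young mice had 162, 154, 207, 233 and 148, and old mice ranged from 113 through 133 to 190.3. Of the 7 old mice 4 lay below all young mice, and these 4 were the letter A mice. The mean was 181 ± 37.5 in young and 141 ± 30.1 in old mice, a log2 difference of -0.36 (SE 0.19, 95% interval -0.75 to 0.04, exact permutation p = 0.0644). *Tet3* was another of these 3 genes: in letter A young and old mice did not overlap (158 ± 5.82 against 119 ± 9.14, exact permutation p = 0.0667, the smallest possible), and in letter B they did (195.9 ± 43.9 against 171 ± 16.8, exact permutation p = 0.600). The log2 ratio of *Tet3* to *Tet2* within a mouse was 0.40 ± 0.39 in young and -0.10 ± 0.35 in old mice (SD). This difference of -0.50 did not pass (exact permutation p = 0.0556, adjusted over the 5 ratios 0.101).

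*Tdg*, the glycosylase that excises oxidised methylcytosine, varied most between mice relative to its level. The gene lies at chr10:82629828-82650799 on the plus strand. Young mice had 4.67, 24.0, 26.7, 24.5 and 13.8, and old mice ranged from 7.89 through 14.2 to 33.7. The 3 lowest values, of 10 to 19 reads, were those of letter A mice, and the ages overlapped. The log2 difference was -0.12 with a 95% interval from -1.08 to 0.84 (exact permutation p = 0.807), an interval that holds old values from 0.474 to 1.79 times the young ones. Counting error was 8.57% to 31.6% of the value per mouse, while the SD between mice was 9.32 around a mean of 18.7 in young mice and 8.76 around 16.4 in old mice. Its sign turned with the letter as a covariate (0.016). *Tdg* shares 41.2% of its 50-base words with other genes, 29.4% with the pseudogene *Tdg-ps*, and its exons overlap those of *Glt8d2* on the other strand.

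The isocitrate dehydrogenase genes that supply 2-oxoglutarate differed in the direction of their means. *Idh2* (chr7:80094846-80115392, minus strand), the mitochondrial enzyme, had 102, 76.4, 109, 118 and 114 in young mice and from 39.5 through 77.8 to 99.2 in old mice. Of the 5 young mice 4 (102 to 118) were above every old mouse, and young mouse 2, at 76.4, was within the old range. The mean was 104.0 ± 16.5 in young and 74.8 ± 22.5 in old mice, a log2 difference of -0.52 (SE 0.23, 95% interval -0.99 to -0.04, adjusted limma p 0.9997). The exact permutation test of this gene alone gave p = 0.0492. Within letter B all 3 old mice (89.2 ± 10.8) lay below all 3 young mice (113.8 ± 4.33), where the smallest possible p is 0.10. The same held in letter B for 2 of the 9 genes, *Idh2* and *Uhrf1*, and for 763 of all genes tested (6.18%).

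*Idh1* (chr1:65158616-65186500, minus strand), the cytosolic enzyme, had 34.8, 35.1, 36.9, 45.1 and 34.7 in young mice and from 29.2 through 41.5 to 73.8 in old mice. The ages overlapped, and the value of 73.8 came from old mouse 7, which also had the lowest *Uhrf1* (35.7), the fewest reads (861047) and a summed neutrophil and monocyte marker value of 624. The mean was 37.3 ± 4.45 in young and 44.8 ± 14.4 in old mice, a log2 difference of 0.21 (SE 0.22, 95% interval -0.26 to 0.68, exact permutation p = 0.336). Without old mouse 7 the difference of *Idh1* was 0.08, and that of *Uhrf1* -0.78. The part of depth and of other cells in these values was not tested. The log2 ratio of *Idh2* to *Idh1* within a mouse was 1.45 ± 0.22 in young and 0.72 ± 0.61 in old mice (SD). The difference of -0.73 had an exact permutation p of 0.0341, and 0.101 after adjustment over the 5 ratios.

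Across the 9 genes none was called between the ages by limma at an adjusted p under 0.05, where 13 of 12354 genes were (0.105%, 12 higher and 1 lower in old mice, or 4 and 1 after rescaling by median ratios). By means, 7 of 9 were lower in old mice, with a median log2 difference of -0.32, against 52.3% of all genes tested and a median of -0.02. At an unadjusted p under 0.05 limma found *Uhrf1*, *Idh2* and *Dnmt3b*, 3 of 9, where 488 genes were found in all (3.95%). These 3 were lower in old mice. Their 95% intervals from the same fit did not include 0, which restates the p under 0.05. With the letter as a covariate their intervals did not include 0 either. The exact permutation p was under 0.05 for *Uhrf1* and *Idh2*, 2 of 9, where 568 of all genes were (4.6%), and after rescaling by median ratios for *Uhrf1* alone, where 446 were (3.61%). Adjusted over all genes, no permutation p before rescaling was below 0.487. When mice were exchanged only within their letter, an alternative added after the data were seen, the exact permutation p was 0.00333 for *Uhrf1*, 0.0167 for *Dnmt3b*, 0.0200 for *Idh2* and 0.0267 for *Tet3* over 300 splits. These were 4 of 9 genes, where 712 of all genes were under 0.05 in the same test (5.76%). Adjusted over all genes, the p of these 4 was between 0.557 and 0.742. With 300 splits 0.00333 is the smallest possible p. The number of splits limits how small an adjusted p can be, here and over the 792 splits. The interaction of age and letter was called for none of the 9 genes (limma interaction, adjusted p 0.9998 each), where 2 genes of the table passed (0.0162%) and 424 had an unadjusted p under 0.05. Its SE ran from 0.34 for *Dnmt3a* to 0.80 for *Tdg* (log2), with 2 to 4 mice per age and letter. The test could therefore miss differences between the letters of that size.

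**Figure D3:**
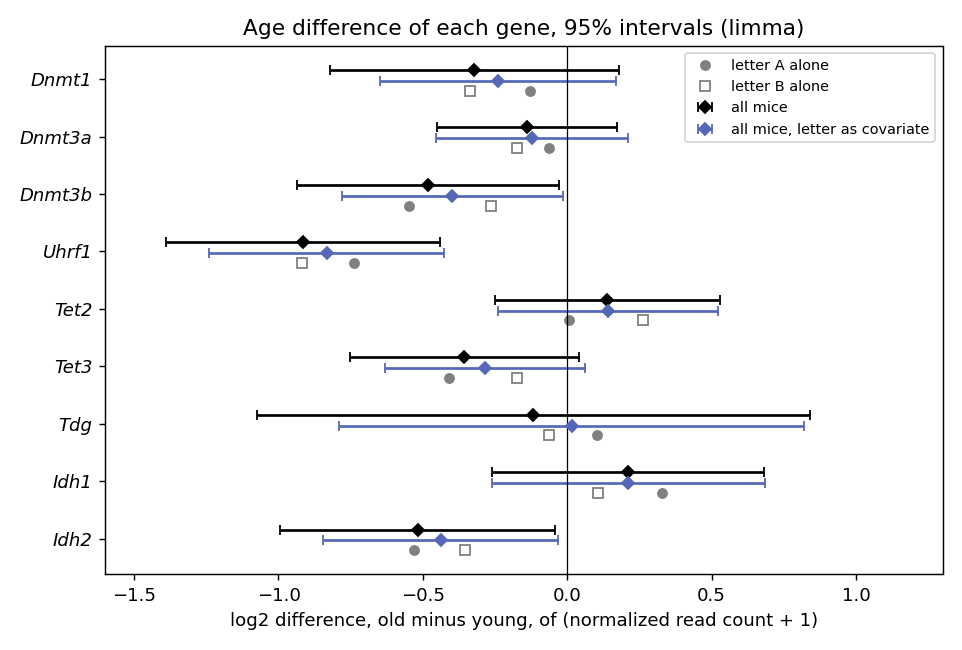
Log2 difference, old minus young, of the normalized read count plus 1 (horizontal axis) for the 9 genes, with limma's 95% interval over all mice (black) and with the letter as a covariate (blue), and the estimates of letter A alone (grey circles) and letter B alone (open squares). The *Uhrf1* interval runs from -1.39 to -0.44, and the *Tdg* interval, from -1.08 to 0.84, is the widest.

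Between the letters of the labels 2 of the 9 genes differed. *Dnmt3b* was higher in letter B than in letter A by 0.49 (SE 0.18, adjusted limma p 0.0374) and *Tet3* by 0.42 (SE 0.17, adjusted limma p 0.0495) in the fit with age. Of all genes 4462 differed between the letters (36.1%) and 1301 were higher in letter B (10.5%). With a minimum mean of 50, *Tet3* missed the threshold (adjusted limma p 0.0767). *Dnmt1* (0.48), *Uhrf1* (0.47) and *Idh2* (0.47) missed the threshold with adjusted limma p of 0.0581, 0.0586 and 0.0625. *Dnmt3a* (0.10), *Tet2* (0.01) and *Idh1* (0.01) had similar means in both letters. Rescaling by median ratios raised the median letter difference of all genes by 0.29, turned the split of calls from 1301 higher and 3161 lower to 3360 higher and 2536 lower, and brought *Dnmt1*, *Uhrf1*, *Idh2* and *Tdg* past the threshold. Relative to the median of all genes, *Dnmt3b* stood at 0.58 before and 0.59 after rescaling, and *Tet3* at 0.51 before and 0.52 after (log2). Depth differed completely between the letters, and the letter and depth cannot be told apart.

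Genes listed as direct or indirect partners of methylation maintenance mostly had lower means in old mice. None of 8 tested partners was called, 6 were lower in old mice, and the median log2 difference was -0.32. *Lig1*, the ligase that joins the lagging strand, had 91.8 ± 21.9 in young and 55.7 ± 16.6 in old mice (log2 difference -0.74, adjusted limma p 0.709). *Pcna*, the sliding clamp to which DNMT1 binds, had 132 ± 34.8 and 85.7 ± 28.7 (log2 difference -0.65, adjusted limma p 0.905), while *Zbtb24* (0.17) and *Usp7* (0.12) had higher means in old mice. For the partners of the de novo enzymes none of 4 was called, and *Setd2* (-0.19), *Kdm2b* (-0.19) and *Nsd2* (0.05) differed little by mean log2 value. All 7 tested genes listed with the readers of methylated CpG had lower means in old mice, none was called, and the median was -0.18. The largest difference was that of *Mbd3* (-0.50), listed by its family and a subunit of the NuRD complex, not as a proven reader.

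Lists on the removal side were mixed. Of 6 tested regulators of TET enzymes none was called, with *Wt1* at -0.33 and *Ogt*, the O-GlcNAc transferase that binds TET proteins, at -0.29, against *Cxxc4* at 0.46 and *Hmces* at 0.39. The log2 difference of letter B minus letter A was -1.77 for *Cxxc4*, -1.31 for *Wt1* and 0.80 for *Ogt*. With the letter as a covariate their age differences were 0.16, -0.55 and -0.15. *Cxxc4* and *Wt1* had low values, down to 2.14 and 0.389. Of 11 base excision repair genes none was called, and 7 had lower means, among them *Ung*, the uracil glycosylase (-0.54), and *Parp1* (-0.39), while *Neil1* (0.34) and *Gadd45g* (0.25) had higher means. Among genes of 2-oxoglutarate metabolism 13 of 15 had lower means, with a median of -0.21 and no call. The extremes were *Idh3b*, a subunit of the NAD-dependent mitochondrial enzyme (-0.38), and *Got2* (-0.37) on one side, and *Bcat1* (0.30) and *Sdhb* (0.11) on the other. *Bcat1* was also lower in letter B by 2.14 on the log2 scale, and its age difference turned to -0.065 with the letter as a covariate.

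The methyl donor cycle, which makes S-adenosylmethionine for the DNMT enzymes, had 10 of 12 genes with lower means in old mice, a median log2 difference of -0.24 and no call. *Mthfd2* (-0.69) and *Shmt1* (-0.42), both of one-carbon metabolism, were lowest, and *Ahcyl2* (0.34) and *Mat2b* (0.05) were on the other side of 0. *Mthfd2* had values down to 1.52 and a log2 difference of letter B minus letter A of -1.70. Its age difference was -0.98 with the letter as a covariate. Of 16 other genes mutated in clonal haematopoiesis none was called, 13 had lower means, and the median was -0.14, with *Trp53* at -0.46, *Ezh2* at -0.44, *Cbl* at 0.07 and *Zrsr2* at 0.06. Of 10 germline genes known to be silenced by promoter methylation, 4 reached the minimum mean and none was called, at -0.37 for *Sycp1*, -0.13 for *Tdrd1* and 0.13 for *Stk31*.

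Genes that cells use in S phase were, like *Uhrf1*, lower by their means in old mice. All 20 tested genes had lower means in old mice, and the median log2 difference was -0.60. None was called, while 14 had an unadjusted limma p under 0.05, against 3.95% of all genes tested. This list, like the others, was chosen with earlier results of these data known. The genes with the largest differences were *E2f1* (37.0 ± 9.72 in young and 21.1 ± 8.07 in old mice, log2 difference -0.83) and *Cdt1*, a licensing factor of replication origins (55.2 ± 10.7 in young and 31.6 ± 9.40 in old mice, -0.82). One by one, none of the 20 separated the ages without overlap. Their mean log2 value per mouse ranged from 6.08 through 6.45 to 6.68 in young mice and from 5.58 through 5.90 to 6.00 in old mice, without overlap. *Uhrf1* is itself known as a gene used in S phase, and the share of cycling cells was not measured here. Among young mice the letter A mice had the lowest values of both, with S-phase means of 6.33 and 6.08 and a log2 *Uhrf1* of 6.54 and 6.65, and young mouse 5 had the highest of both (6.68 and 7.27). Among old mice the extremes fell on different mice. Old mouse 5 had the lowest S-phase mean (5.58) with a log2 *Uhrf1* of 6.43, and old mouse 7 had the lowest *Uhrf1* (5.20) with an S-phase mean of 5.90. The part of cycling cells in the *Uhrf1* difference was not tested.

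**Figure D4:**
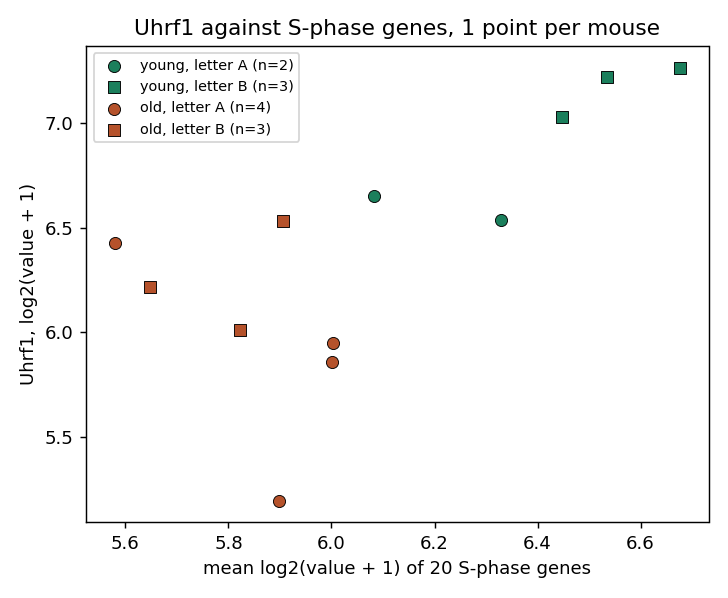
*Uhrf1* (vertical axis) against the mean of 20 S-phase genes (horizontal axis), both as log2(normalized read count + 1), with 1 point per mouse in green for young and brown for old, circles for letter A and squares for letter B. The 5 young mice lie above 6.08 and the 7 old mice at or below 6.00 on the horizontal axis.

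Markers of progenitors had lower means in old mice too. *Cd34*, a surface protein of progenitors that is not part of the LSK-SLAM gate, had 181.7 ± 53.0 in young and 84.6 ± 10.4 in old mice (log2 difference -1.04, adjusted limma p 0.0544, and 0.00856 with the letter as a covariate). *Flt3*, the receptor of multipotent progenitors, had 54.1 ± 13.6 and 30.9 ± 13.0 (log2 difference -0.87, adjusted limma p 0.780). Of 10 stem cell markers 5 had lower and 5 higher means in old mice, with a median log2 difference of -0.003, *Hoxb5* at 0.75 and *Slamf1* at 0.42 on one side and *Hlf* at -0.44 on the other. The part of a different mix of progenitors in the *Uhrf1* difference was not tested.

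**Figure D5:**
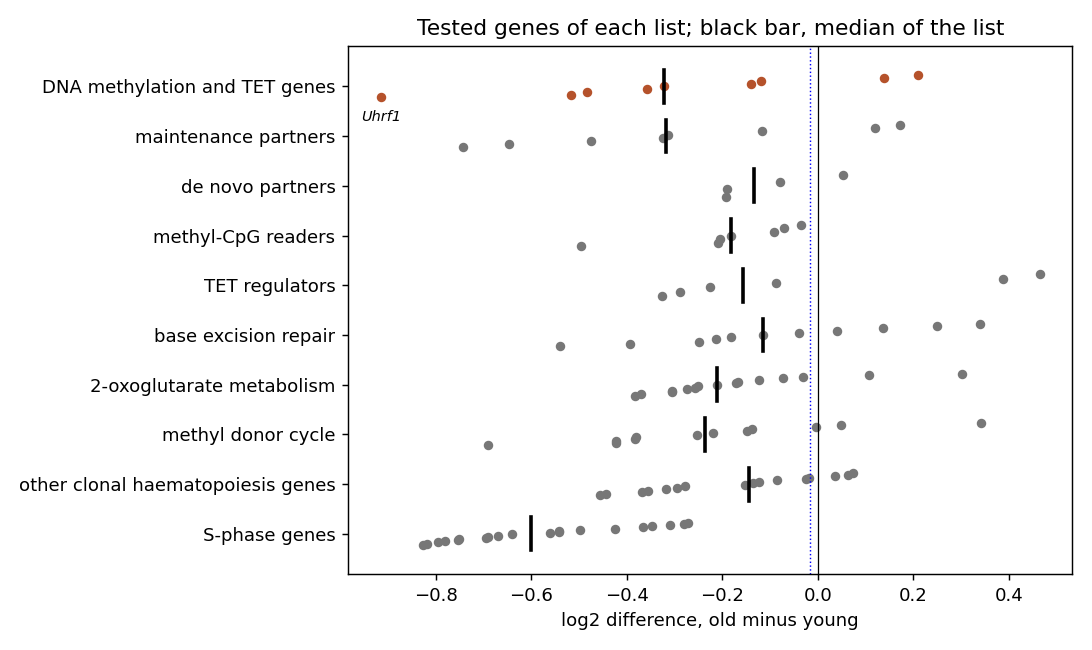
Log2 difference, old minus young (horizontal axis), of every tested gene of the lists named on the vertical axis, which leave out the cell type markers and germline genes, with 1 point per gene, the list's median as a black bar and the median of all genes tested (-0.02) as a dotted line. All 20 S-phase genes lie left of 0, and *Uhrf1* at -0.91 is the leftmost point drawn. The markers *Cd34* (-1.04) and *Pf4* (-1.33), which are not drawn, had larger differences.

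For each gene the most alike genes were those with the highest Pearson correlation over the 12 mice, after the mean of each age and letter had been subtracted. With 12 mice and 12354 genes to choose from, high values are found for any gene, and the numbers are a description. *Uhrf1* was most like *Map7d1* (0.95), *Haus7* (0.93) and *Zfp553* (0.93), and *Dnmt1* was most like *Hdgf* (0.97), *Dnajc13* (0.96) and *Gsk3a* (0.95). For *Dnmt3a* these were *Zc3h12d* (0.98), *Peg12* (0.91) and *Dcun1d2* (0.88), and for *Dnmt3b* *Dpp4* (0.95), *Map3k2* (0.92) and *Abhd13* (0.90). *Tet2* was nearest to *Zfp426* (0.95), *Acbd3* (0.94) and *Tatdn2* (0.94), and *Tet3* to *Ttc38* (0.93), *Sugp2* (0.91) and *Cep250* (0.90). *Tdg* was nearest to *Fut10* (0.94), *Sgsm2* (0.92) and *Carnmt1* (0.91), *Idh1* to *Timm29* (0.98), *Ltv1* (0.96) and *Zfp449* (0.95), and *Idh2* to *Wls* (0.97), *Decr1* (0.96) and *Imp3* (0.96). None of the 9 genes was among the nearest of another.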

How the data were processed

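Libraries of LSK-SLAM cells of 5 young and 7 old Wt mice were analysed. The signal that the authors deposited is a normalized read count per gene and mouse (reads divided by the library size and a scaling factor), and the submitters' processing notes name FastQC 0.11.8, STAR 2.5.4b, edgeR 3.24.3 and mm10. The counting tool and annotation are not given in the sources used here. A deposited table of the authors' own comparison, with fold changes and p-values, was not used. Labels gave age, replicate number and letter. Values were whole multiples of 1 read in 100% of cases (tolerance 0.01), and reads were recovered from them; intervals and floors in reads cover counting error only.

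The main test was limma 3.58.1 (R 4.3.3, lmFit, eBayes with trend) on log2(value + 1) for 12354 genes with a mean of at least 10, with Benjamini-Hochberg adjustment and a threshold of 0.05, without covariate. Fold changes on this scale understate those of low genes. For single genes, exact permutation tests (two-sided) were used. edgeR 4.0.16 and DESeq2 1.42.0 were run on the recovered reads; edgeR called 18 genes. Further alternatives were the pseudocount, the minimum mean, no trend, the letter, a replicate block, median ratios and leaving out each mouse. The procedures were tested on simulated data. Positions and shared words came from GENCODE vM21 (GRCm38), which held 18745 of 18762 identifiers, and promoters from RefSeq. The genes and lists were chosen with earlier results of these data known. Named besides the listed genes were, per list, called genes and up to 2 with the largest difference in each direction, and the 3 most alike genes; 2 genes that this rule names are not reported here. Some genes of the lists have no row and were not analysed here.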

Additional observations from a re-analysis of the deposited data

Results flagged for a closer look

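*Idh1* in young mouse 4, at a normalized read count of 45.1, stood apart from the other young mice, which lay between 34.7 and 36.9 (Dixon's test at 95%, gap over range 0.788). It was the 1 such value among 18 groups of 5 or 7 mice examined for the 9 genes, where chance gives about 0.9.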

How the results depend on the processing

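The number of genes called between the ages depended on the processing, and the cause was not tested. From 13 it went to 2 with no trend, 1 in letter A alone, 100 in letter B alone, 37 with the letter as a covariate, 5 after rescaling by median ratios, 32 after rescaling with the letter as a covariate (added after the data were seen), 57 with DESeq2 and 43 with edgeR and the letter as a covariate. Leaving out 1 mouse gave 3 to 32 calls, and 23 to 76 with the letter as a covariate. The count was 3 without young mouse 3 or 4 or old mouse 1, 2 or 3, 4 without young mouse 5, 6 without young mouse 1, 7 without old mouse 6 and 32 without old mouse 5. Between the letters, a minimum mean of 50 gave 943 calls in place of 4462, of which 830 were higher in letter B; fewer genes (4799) were tested.

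*Uhrf1* kept its direction in all 15 alternatives beside leaving out mice (-0.95 to -0.73) and was called in 2 of them, letter B alone and DESeq2. Without 1 mouse its difference was -1.02 to -0.78 (adjusted p 0.0968 to 0.767), and with the letter as a covariate -0.92 to -0.74, where it was called without old mouse 5 (adjusted p 0.00462). None of the other 8 genes was called in any alternative. *Tdg* turned sign with the letter as a covariate (0.016), in letter A alone (0.10) and after rescaling with the letter as a covariate (0.026), and ranged from -0.52 to 0.055 without 1 mouse, or -0.38 to 0.37 with the covariate. Between the letters *Tet3* missed the threshold at a minimum mean of 50 (adjusted p 0.0767). Of the 9 exact permutation tests, 2 were under 0.05 (4.6% of all genes), 1 after rescaling (*Uhrf1*, p = 0.0101; 3.61% of all genes) and 4 with exchange within letters (5.76% of all genes). No interaction was called in either scaling.

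The replicate numbers were not used as pairs in the main test. The correlations of same-numbered young and old mice, after the mean of each age was subtracted, were 0.18, -0.56, 0.40, 0.61 and 0.04. The mice numbered 2 (-0.56) and 5 (0.04) differed in letter between the ages, so the letter enters these values. Whether the numbers pair the mice is not settled by them. The fit with a replicate block over replicates 1 to 5 called 19 genes, against 8 without the block, and gave -0.73 for *Uhrf1* (adjusted p 0.567, against 0.660). *Tdg* had the fewest reads of the 9 genes, 10 to 136 per mouse.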
